A study of Homo sapiens with 9 samples.

Results

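ATP-binding cassette (ABC) genes were measured in human embryonic kidney HEK293 cells that stably expressed HA-tagged MEK1. The genes were chosen by name, as every array sequence that was not a control and whose gene name began with ABC, a subfamily letter from A to G and a number. This gave 49 genes, read by 75 array sequences, of the 38779 genes and transcripts named on the array, and 32 of the 49 passed the filter on dim signals, against 19277 genes in all. No measured value entered the naming rule, but the family was selected on earlier results of these data, in which ABCB1 and ABCA1 had stood out, so the values of ABCB1 and ABCA1 are given as a description without a test. MEK1, encoded by MAP2K1, is the kinase that activates ERK. One cell line carried WT MEK1, one carried F53S, a mutant found in the developmental disorders called RASopathies, and one carried K57N, a mutant found in cancer. All 3 lines were made by transfection of a pQCXIP plasmid followed by puromycin selection, the cells' own MAP2K1 gene was left in place, and RNA was taken under steady-state conditions. The WT and mutant forms were each represented by 1 line, so that the effect of a mutation cannot be told apart from other differences between the lines. Each line was measured in 3 independent experiments, with 1 array per experiment.

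ABC proteins use ATP to move substrates across membranes, and their nucleotide-binding domains share a signature motif. Subfamily A moves mostly lipids, subfamilies B, C and G hold the drug efflux pumps beside mitochondrial, bile salt and sterol transporters, and subfamily D imports fatty acids into peroxisomes. Subfamilies E and F have the nucleotide-binding domains but no membrane span, and their members act on ribosomes and in translation.

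Values are log2 signals relative to the 75th percentile of the same array, so that 0 is the signal of that percentile, and they were compared between lines for a given array sequence, never between sequences. Replicate 1 of each line was on 1 slide (slide 1), and replicates 2 and 3 were on another (slide 2). The arrays of slide 1 were dimmer, with 23711 to 26110 sequences well above background, against 27114 to 29319 on slide 2. Replicate number and slide therefore moved together, and results are also given with slide as a term of the model and within each slide. MAP2K1 signal, which cannot separate the HA-tagged copy from the cells' own, was 2.34 to 2.42 in WT, 2.39 to 2.50 in F53S and 2.81 to 2.92 in K57N. Of 11 genes that mark HEK293 cells, 10 were well above background on all 9 arrays. The exception was NEFM, detected on 2 of 3 arrays of each line. Of 18 markers of other cell types, 9 were also detected on all 9 arrays and 4 (ALB, DCN, SLC22A6 and TTR) on none. Of the 10 of these 18 that were tested, none differed between K57N and WT in the fit of the 9 arrays, and COL1A1, a fibroblast collagen, was lower with slide as a term (log2 difference -1.20). Their part in the results below was not tested.

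Detection is given by subfamily, with no test between subfamilies. All 4 members of subfamilies E and F were tested, as were 7 of 9 in subfamily B, 8 of 13 in C, 3 of 4 in D, 8 of 14 in A and 2 of 5 in G. A gene entered the test when all 3 arrays of at least 1 line showed a sequence of it well above background. Of the 17 genes that were not tested, 11 were above background on no array of any line. These were the lipid transporter genes ABCA4, ABCA6, ABCA12 and ABCA13, the pseudogene ABCA17P, the bile salt export pump ABCB11, the organic anion pump ABCC3, ABCC9 (a sulfonylurea receptor), ABCC11, and ABCG5 and ABCG8, which together export plant sterols. The other 6 appeared on single arrays of a line. ABCG2, the breast cancer resistance protein, was detected on 1 K57N array and on no array of WT or F53S. Its signal on that array (-4.07) was no higher than on the WT (-3.67) and F53S (-4.01) arrays of the same slide. ABCC12 and the peroxisomal transporter gene ABCD2 were likewise detected on 1 K57N array alone, and ABCB5 on 2, a different one for each of 2 array sequences. For ABCD2 that array stood at -2.87, with the other two K57N arrays at -6.78 and -7.16. ABCA8 was detected on 1 F53S array, and ABCC13 on 1 array of each line.

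**Figure D1:**
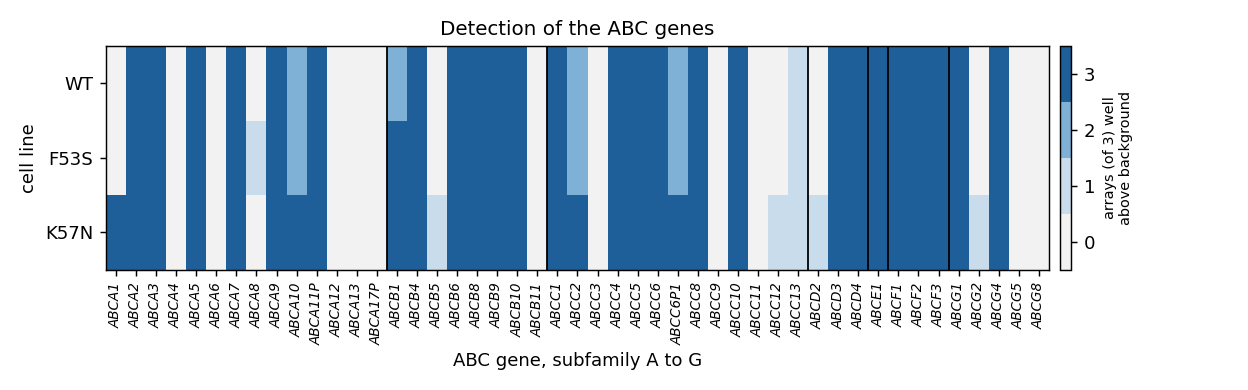
Number of arrays, of 3, on which each of 47 of the ABC genes (columns, subfamily A to G) was well above background in each cell line (rows), by the array sequence used in the test or, for genes not tested, the one detected most often. ABCA1 is seen on 3 K57N arrays and on none of WT and F53S, and 25 of the genes shown are dark in all 3 lines.

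ABCB1 encodes P-glycoprotein, the multidrug efflux pump. It was read by 60-base array sequences near both ends of the coding region, shown because they make clear which stretches of the transcript the values come from. In the sequence nearer the 3′ end (hg19 chr7:87135313-87138603, minus strand, crossing an intron; base 3969 of the transcript onwards), the capitals mark the 11 bases that begin the ABC signature motif, which lie in its only open reading frame. The sequence nearer the 5′ end (hg19 chr7:87229435-87229494, minus strand; base 499 of the transcript onwards) lies just after the start codon.
ABCB1 near the 3′ end: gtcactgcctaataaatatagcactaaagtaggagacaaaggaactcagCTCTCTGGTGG
ABCB1 near the 5′ end: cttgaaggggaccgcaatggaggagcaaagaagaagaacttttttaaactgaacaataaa

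By the sequence near the 3′ end, the ABCB1 signal was -3.76, -3.10 and -3.12 in WT, -3.53, -2.90 and -2.84 in F53S, and -0.96, -1.04 and -1.03 in K57N (replicates 1, 2 and 3). The K57N arrays lay above all 6 others, and WT and F53S overlapped. One WT array, replicate 1, was not well above background. The K57N mean was 4.98-fold that of WT (log2 difference 2.31 ± 0.25, SE, 3 arrays per line) and 4.24-fold that of F53S (2.08 ± 0.25). The difference from WT was 2.79 on slide 1, against the WT array not above background, and 2.08 on slide 2, and over all arrays it was 1.41 with normexp background correction in place of the scanner's. The sequence near the 5′ end gave -4.61, -4.72 and -3.80 in WT, -4.21, -4.25 and -3.90 in F53S, and -2.91, -2.72 and -1.83 in K57N, again without overlap between K57N and the other lines. Replicate 1 of WT and of F53S was not above background by this sequence, so that its K57N means of 3.71-fold that of WT and 3.11-fold that of F53S rest in part on values that are not levels. F53S exceeded WT by 0.23 ± 0.25 and 0.26 ± 0.34 by the sequences near the 3′ and 5′ ends, differences no larger than their errors in the fit without slide. With slide as a term the errors were 0.16 and 0.30, so that the first difference exceeded its error.

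ABCA1 encodes the cholesterol and phospholipid exporter that forms high-density lipoprotein. Its signal was -5.98, -7.73 and -5.74 in WT, -5.90, -5.56 and -5.83 in F53S, and -3.78, -3.56 and -3.60 in K57N. ABCA1 was well above background on all 3 K57N arrays and on no array of the other lines. The WT and F53S values are therefore not levels, and no exact fold can be given. Each dim array was set to the lowest signal that was still well above background, or to the ABCA1 value where that was higher. On that footing the K57N signal was 2.13-fold that of WT and 2.17-fold that of F53S. These folds are not strict lower limits, since a sequence not above background can exceed that lowest signal. On WT replicate 1, where it was -3.862, ABCG2 was not above background at -3.67. The measured log2 differences were 2.83 ± 0.46 from WT and 2.11 ± 0.46 from F53S, and without WT replicate 2, the lowest array, the first was 2.21. With normexp background correction it was 0.61. The array sequence lies near the 3′ end of the transcript (hg19 chr9:107543704-107543763, minus strand). A second ABCA1 sequence nearer the 5′ end (hg19 chr9:107624012-107624071) was above background on 1 K57N array alone, at -3.52, with the other two at -5.33 and -6.43. The gain seen by the first sequence was thus not measured by the second.

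The promoters of these genes are shown because ABCB1 and ABCA1 were the members that stood apart in K57N. The windows run from 250 bases before to 50 bases after the start site, from RefSeq (GRCh38.p14), and capitals mark matches, on either strand, to 7 motifs. TGANTCA is the AP-1 site, GCGNGGGCG the EGR1 site and CCGGAANT the ETS site, and the GC box was taken as GGGCGG. The CCAAT box is named by its letters, the E-box was taken as CACGTG, and the DR4 element, of the type bound by liver X receptors, starts with the half-site AGGTNA, which is followed after 4 bases by another one, NGGTCA. ABCB1 has a downstream start site (chr7:87600835-87601134, minus strand) and an upstream one (chr7:87713246-87713545, minus strand), and ABCA1 has 1 window (chr9:104928106-104928405, minus strand).
ABCB1 downstream promoter: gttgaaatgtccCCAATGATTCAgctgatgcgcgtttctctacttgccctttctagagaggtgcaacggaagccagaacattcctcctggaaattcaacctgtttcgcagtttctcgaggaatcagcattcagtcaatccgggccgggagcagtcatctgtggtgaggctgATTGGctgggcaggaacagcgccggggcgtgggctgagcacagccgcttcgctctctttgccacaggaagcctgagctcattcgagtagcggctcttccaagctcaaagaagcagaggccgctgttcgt
ABCA1 promoter: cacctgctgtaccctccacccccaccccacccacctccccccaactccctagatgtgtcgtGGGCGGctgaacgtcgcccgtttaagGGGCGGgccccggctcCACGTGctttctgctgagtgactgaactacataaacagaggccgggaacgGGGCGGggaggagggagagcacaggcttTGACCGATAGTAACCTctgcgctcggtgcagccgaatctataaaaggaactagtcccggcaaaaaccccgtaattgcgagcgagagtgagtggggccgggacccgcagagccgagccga

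The downstream ABCB1 window held 1 AP-1 match, at -234 to -228 from the start site and sharing its first base with a CCAAT match, and a second CCAAT match on the opposite strand. The ABCA1 window held 3 GC boxes, 1 E-box and 1 DR4 match on the opposite strand. No motif of the 7 matched in the upstream ABCB1 window, and no EGR1 or ETS match was found in any of the 3 windows. Among all 35116 windows of this length, 7.71% held the AP-1 letters, 34.6% CCAAT, 45% the GC box, 7.26% the E-box, 0.094% the DR4 letters, 9.43% EGR1 and 6.16% ETS. Of the 49 ABC genes, 35 had a window, and of their 53 windows 11.3% held the AP-1 letters, 22.6% CCAAT, 47.2% the GC box, 17% the E-box, 1.89% the DR4 letters, 7.55% EGR1 and 1.89% ETS. A match describes letters only, and the arrays did not measure binding.

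In the limma fit of the 9 arrays (adjusted p below 0.05 and more than 2-fold), 2 of 32 ABC genes, ABCB1 and ABCA1, were called higher in K57N against WT, beside 1.51% of all genes tested. Since these are the genes that led to the choice of the family, nothing is read from that count or from the counts of higher genes below. No ABC gene was called lower (0.742% of all genes), although 2, ABCA3 and ABCA7, were more than 2-fold lower at an unadjusted p below 0.05 by limma (1.95% of all genes) and by the methods' t-test (1.62%). With slide as a term, 3 of 32 were called higher (2.56% of all genes) and 2 of 32 lower (1.97%), adding ABCC2 to the former and ABCA3 and ABCA7 as the latter. ABCC2, like ABCA1, ABCA10 and ABCC6P1, passed the filter through K57N alone, the line in which it was higher, so that it too is described without a test. Without the fold limit, 7 of 32 (21.9%) were higher, against 8.55% of all genes, and 3 of 32 (9.38%) lower, against 10.8%.

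ABCC2 encodes the efflux pump for conjugated drugs and bilirubin. Its signal was -5.17, -4.36 and -4.29 in WT, -5.05, -4.18 and -3.97 in F53S, and -3.36, -3.51 and -3.33 in K57N. All 3 K57N arrays lay above every WT and F53S array, and replicate 1 of WT and of F53S was not above background. The K57N mean was 2.31-fold that of WT. The log2 difference was 1.21 over all arrays, 1.81 on slide 1, where the WT value is not a level, and 0.91 on slide 2, and it was 0.34 over all arrays with normexp background correction. Against F53S the difference was 0.65 on slide 2, the slide on which all arrays of both lines were above background. A second ABCC2 array sequence was above background on 1 WT array only.

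The ABC genes that were lower in K57N with slide as a term all belonged to subfamily A. ABCA3, the phospholipid transporter of lung surfactant, was at 2.17, 1.13 and 1.14 in WT, 2.04, 0.96 and 1.02 in F53S, and 0.42, 0.40 and 0.49 in K57N. K57N lay below all other arrays, and replicate 1 of WT and F53S lay about 1 log2 unit above replicates 2 and 3. The mean was 2.06-fold lower in K57N than in WT (log2 difference -1.04, limma adjusted p = 0.234, or 0.0178 with slide fitted). It was -1.75 on slide 1 and -0.69 on slide 2, so that slide 2 alone showed less than a 2-fold difference (limma adjusted p = 0.00478 over its 6 arrays). With normexp background correction the ABCA3 difference over all arrays was -0.98, short of 2-fold.

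ABCA7, a lipid transporter that is a risk gene for Alzheimer's disease, was at -0.73, -1.27 and -1.25 in WT, -0.83, -1.44 and -1.50 in F53S, and -2.55, -1.87 and -1.87 in K57N. The K57N arrays lay below all others, and the gap was widest on slide 1. The mean was 2.02-fold lower than in WT (log2 difference -1.01, limma adjusted p = 0.124, or 0.034 with slide fitted), with -1.82 on slide 1 and -0.61 on slide 2 (limma adjusted p = 0.00519 over the 6 arrays of slide 2). With normexp background correction the ABCA7 difference over all arrays was -0.73, also short of 2-fold. ABCA2, the lysosomal lipid transporter of nervous tissue, was 1.61-fold lower (-0.69, limma adjusted p = 0.135, or 0.0287 with slide fitted). Its WT arrays ran from -1.11 to -0.83 and its K57N arrays from -1.97 to -1.41, without overlap. With the replicate block in place of slide, ABCA3 was still called (limma adjusted p = 0.0333) and ABCA7 was not (0.0572).

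The other genes that passed at adjusted p below 0.05 with slide as a term were higher in K57N by less than 2-fold. ABCF2, an ABC protein without a membrane span, was at 2.60, 2.37 and 2.32 in WT and at 3.18, 2.82 and 2.85 in K57N, 1.43-fold higher and without overlap (limma adjusted p = 0.298, or 0.00771 with slide fitted). Its difference was even between slides, at 0.58 and 0.48. ABCB4, the phosphatidylcholine exporter of the bile canaliculus, lies next to ABCB1 on chromosome 7. It was at -1.85, -2.04 and -1.99 in WT, -2.12, -1.64 and -1.63 in F53S, and -1.64, -1.23 and -1.10 in K57N, 1.56-fold higher in K57N than in WT (limma adjusted p = 0.194, or 0.0243 with slide fitted). The ABCB4 difference was 0.21 on slide 1 and 0.85 on slide 2, and K57N overlapped F53S but not WT. ABCC8, the sulfonylurea receptor of the pancreatic beta cell, was 1.36-fold higher (limma adjusted p = 0.534, or 0.0432 with slide fitted and 0.0571 with the replicate block). The lowest K57N array of ABCC8 (-2.77) lay next to the highest WT array (-2.78).

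**Figure D2:**
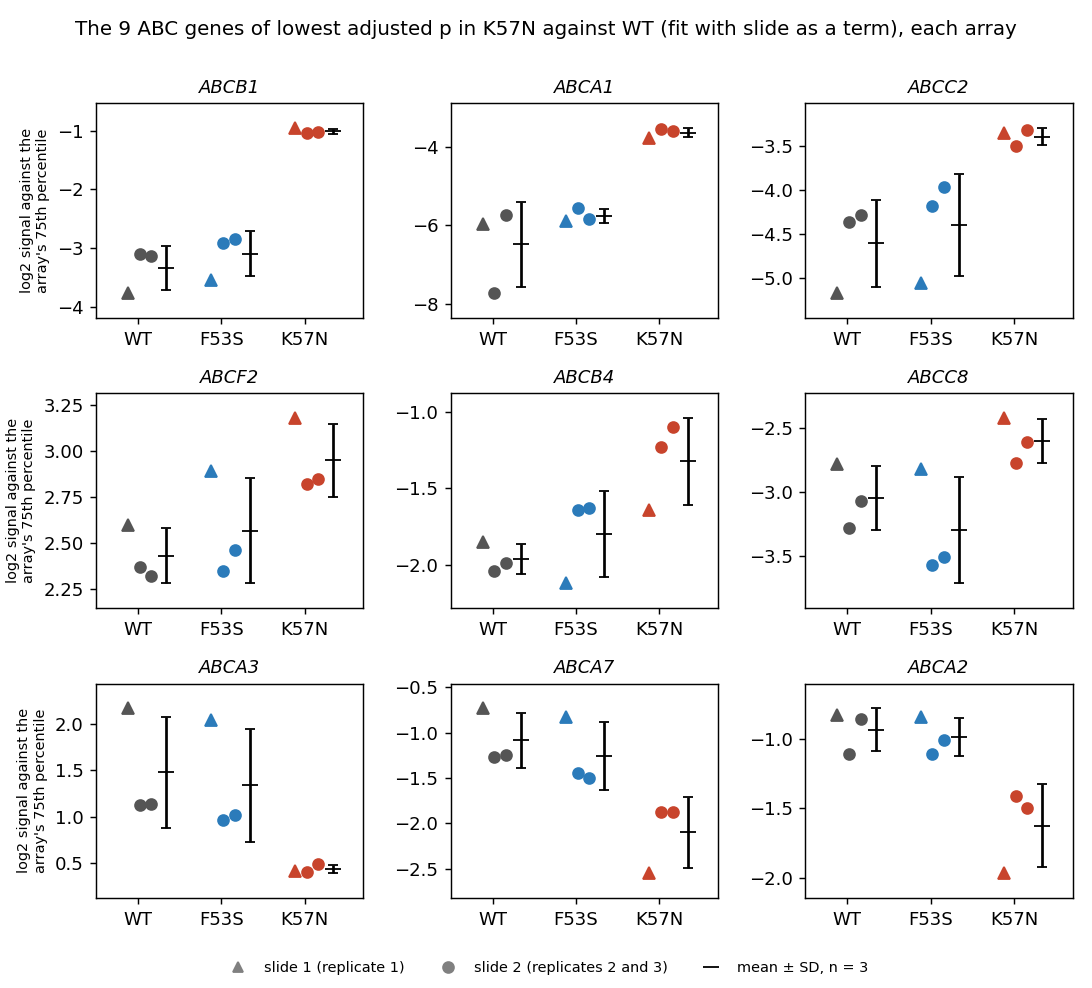
Log2 signal relative to the array's 75th percentile (vertical axes, different for each gene) in WT, F53S and K57N. The 9 ABC genes are those of lowest limma adjusted p in K57N against WT with slide as a term. Triangles are slide 1, circles are slide 2, and the bar is the mean ± SD of 3 arrays. As the genes were chosen by that p, nothing is read from the lack of overlap. K57N does not overlap WT in any panel, nor F53S in any but ABCF2 and ABCB4, although in ABCC8 the lowest K57N array (-2.77) is level with the highest WT array (-2.78), while the WT and F53S points of ABCA1 are at background and the triangles of ABCA3 stand about 1 unit above the circles in WT and F53S.

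No ABC gene was called between F53S and WT. In the limma fit, 0 of 32 ABC genes were called in either direction, with or without slide as a term or a fold limit, against 0% of all genes. At an unadjusted limma p below 0.05 with the fold limit the count was also 0 of 32 (0.208% of all genes higher and 0.0311% lower), as it was by the methods' t-test (0.13% higher and 0% lower). ABCA1, at background in both lines, had the widest difference (0.72 ± 0.46), and the other genes given here lay between -0.25 (ABCC8) and 0.31 (ABCG1). The errors bound what could be seen, since the median SE of a difference over the ABC genes was 0.25, and 0.16 with slide as a term.

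K57N was also set against F53S, the comparison between the mutants, which shares its K57N arrays with the comparison above. ABCB1, given as a description only, was the 1 of 32 genes past the limits upward (0.96% of all genes), and none was called lower (0.249%), nor more than 2-fold lower at an unadjusted limma p below 0.05 (1.22%). With slide as a term, the genes past the limits upward were ABCA1, ABCB1 and ABCC2 (1.89% of all genes), from which nothing is read for the reasons given above, and none was called lower (1.11%). Without the fold limit, ABCC8 and ABCF2 joined them to make 5 (5.83%), and ABCA2 and ABCA3 were lower (7.54%). ABCC8 differed from F53S by 0.70 (limma adjusted p = 0.325, or 0.0121 with slide fitted), and its lowest K57N array lay close to the highest F53S array (-2.82). ABCF2 differed by 0.38 (0.635, or 0.0327 with slide fitted), ABCA2 by -0.64 (0.252 and 0.0485) and ABCA3 by -0.91 (0.431 and 0.0391), in the same limma fits. With the replicate block ABCC8 still passed (limma adjusted p = 0.0206), and ABCF2 (0.0656), ABCA2 (0.0778) and ABCA3 (0.0666) did not.

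By subfamily, K57N minus WT had a median of -0.14 over 8 genes of A, 0 over 7 of B, 0.20 over 8 of C, 0.09 over 3 of D and 0.16 over 3 of F, with 0.46 for ABCE1 and -0.03 for the 2 genes of G. The medians of A, D and G changed sign between slides, from 0.07 on slide 1 to -0.27 on slide 2 in A, from -0.17 to 0.22 in D and from 0.04 to -0.06 in G. The median over all 32 was 0.10, beside -0.06 over all 19277 genes, and 19 of 32 (59.4%) lay above 0, beside 42.9% of all genes. Those 19 include ABCB1 and ABCA1, which led to the choice of the family. They also include ABCA10, ABCC2 and ABCC6P1, which passed the filter through K57N alone. Nothing is therefore read from this median or share. In subfamily A, 3 of 8 genes were beyond 2-fold, ABCA3 and ABCA7 downward and ABCA1 upward, the last against WT values that are not levels. In subfamily B, ABCB1 was the 1 gene of 7 beyond 2-fold, and in subfamily C ABCC2 was the 1 of 8. No gene of subfamilies D to G passed 2-fold. Over all 32, 5 (15.6%) were beyond 2-fold, beside 5.27% of all genes, but 2 of these 5 are ABCB1 and ABCA1 and another, ABCC2, passed the filter through K57N alone, so nothing is read from that share. F53S minus WT had medians from -0.12 (ABCE1) to 0.22 (D), and 0.03 over the family beside 0.01 over all genes. K57N minus F53S had a median of 0.06 over the family beside -0.07 over all genes, from which nothing is read for the same reasons. These medians describe the subfamilies, and no difference between subfamilies was tested.

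**Figure D3:**
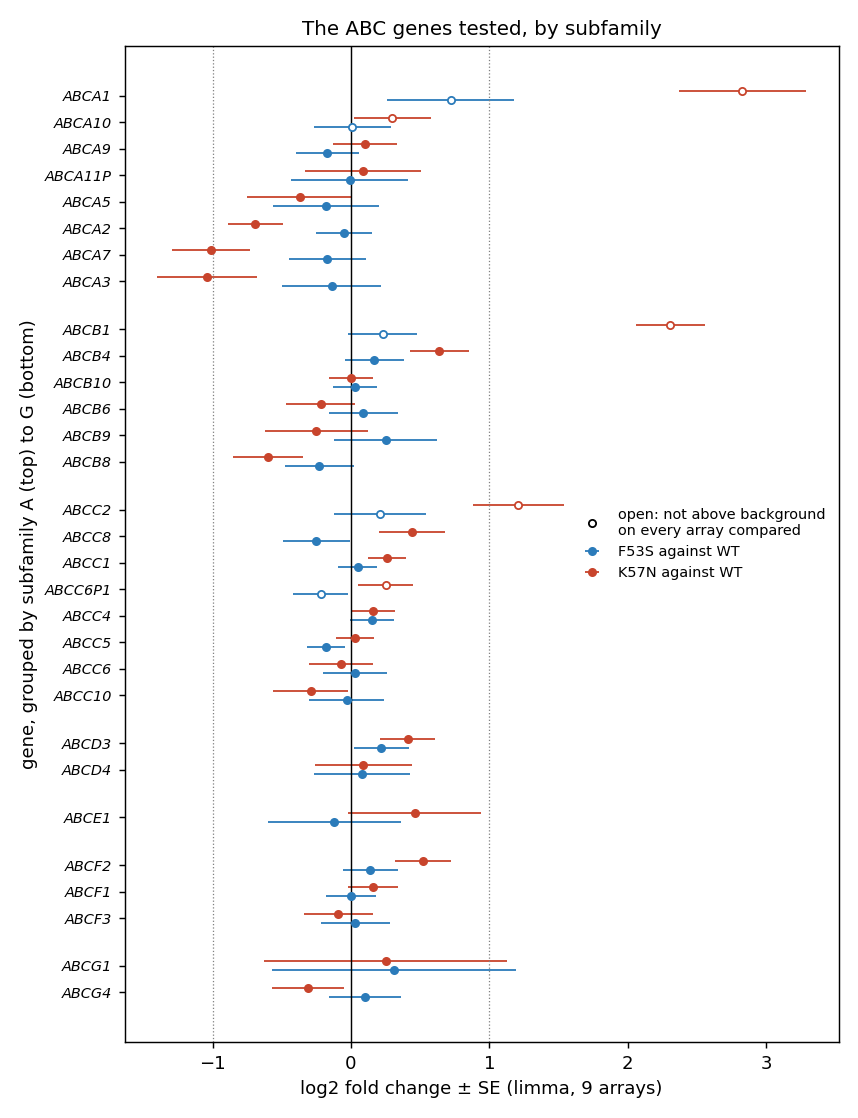
Log2 fold change against WT ± SE from the limma fit of the 9 arrays (horizontal axis) of 30 of the ABC genes tested, for F53S (blue) and K57N (red), grouped by subfamily, with dotted lines at 2-fold and open points where a sequence was not well above background on every array compared. The blue points stay within 2-fold of WT, and the red points of ABCA1, ABCB1, ABCC2, ABCA3 and ABCA7 lie beyond it.

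The remaining members given here did not pass the limma test in K57N against WT, with or without slide as a term. In subfamily A, ABCA5, ABCA9, ABCA10 and the pseudogene ABCA11P differed from WT by -0.37 to 0.30 in K57N. ABCA9 was at 3.74 to 4.39 in WT and F53S and 4.10 to 4.66 in K57N, and whether its array sequence reads that gene alone was not tested. In subfamily B, the mitochondrial transporter genes gave unequal values. ABCB10 differed by 0.00 ± 0.16, ABCB6 by -0.22 ± 0.25 and ABCB8 by -0.60 ± 0.25 (limma adjusted p = 0.36, or 0.105 with slide fitted). ABCB9, a lysosomal peptide transporter, differed by -0.25 ± 0.37.

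In subfamily C, ABCC1, the multidrug resistance protein that exports glutathione conjugates, was at 0.40, 0.23 and 0.20 in WT and 0.61, 0.54 and 0.48 in K57N, without overlap. Its 1.20-fold difference had an adjusted p of 0.513 in limma and of 0.0522 with slide as a term. ABCC4 and ABCC5, exporters of cyclic nucleotides, differed by 0.16 ± 0.16 and 0.03 ± 0.14, and ABCC10 by -0.29 ± 0.27. ABCC6, whose loss causes ectopic calcification, was at 1.50 to 2.07 in WT and 1.46 to 1.92 in K57N, and its pseudogene ABCC6P1 differed by 0.25 ± 0.20. The 2 are near-identical copies, so that the array may not separate them. The 4 array sequences of ABCC6 differed from WT by -0.69 to -0.03 in K57N.

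In subfamily D, the peroxisomal gene ABCD3 differed from WT by 0.41 ± 0.20 in K57N, and ABCD4, which takes part in lysosomal cobalamin export, by 0.09 ± 0.35. ABCD4 was at 1.01 to 1.96 in WT and 1.27 to 1.79 in K57N. ABCE1, which splits ribosomes after termination, was at 0.59, 1.98 and 1.87 in WT, 0.41, 1.75 and 1.93 in F53S, and 1.74, 2.09 and 1.99 in K57N. The low values of ABCE1 were replicate 1 of WT and F53S, and its difference from WT was 1.15 on slide 1 and 0.11 on slide 2. ABCF1, a translation initiation factor, was at 2.95 to 3.38 in WT and 3.23 to 3.49 in K57N and differed by 0.16 ± 0.18. ABCF3 differed by -0.09 ± 0.25. In subfamily G, ABCG4 was at -3.11 to -2.65 in WT and -3.19 to -3.05 in K57N. ABCG1, a cholesterol exporter like ABCA1, was at -1.65, -4.16 and -3.83 in WT, -1.47, -3.45 and -3.79 in F53S, and -1.64, -3.89 and -3.35 in K57N. Its arrays split by slide in all 3 lines, and K57N differed from WT by 0.02 on slide 1 and 0.37 on slide 2.

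Of the tested genes, 10 were read by more than 1 tested array sequence. In K57N against WT, the sequences had the same sign for 7 of these 10 genes, and their widest spread was 0.66 log2 units, for ABCC6. ABCB8 gave -0.60 and -0.52, ABCD3 0.41 and 0.49, and ABCE1 0.46 and 0.45. The sequences of ABCB10 lay at or around 0, and those of ABCC5 were unequal, from 0 to 0.37.

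The slides gave the same direction for each gene called and unequal sizes. ABCA3 and ABCA7 differed from WT more on slide 1, where each line has 1 array, than on slide 2. For ABCC2 the WT array of slide 1 was not above background, and for ABCA1 no WT array was, so that the slides cannot be compared for these genes by level. ABCE1 differed by 1.15 on slide 1 and by 0.11 on slide 2. ABCB8 was at -1.35 on slide 1 and at -0.22 on slide 2. The part of array brightness in these slide differences was not tested.

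**Figure D4:**
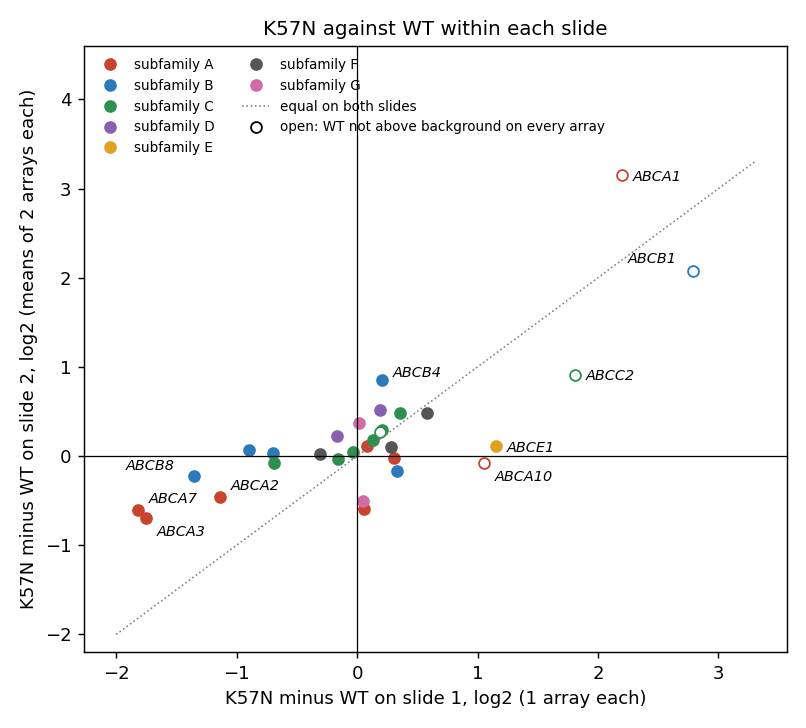
Difference between K57N and WT within slide 1 (horizontal axis, log2, 1 array per line) and within slide 2 (vertical axis, log2, means of 2 arrays per line) for 30 of the ABC genes tested, coloured by subfamily. Open points mark genes not well above background on every WT array (ABCA1, ABCA10, ABCB1, ABCC2 and ABCC6P1), whose positions are not exact, and ABCE1 (1.15 and 0.11) lies beyond 1 log2 unit on slide 1 and near 0 on slide 2.

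Genes known to work with ABC proteins were described from 7 lists, and 1 of their 102 tested genes was called in K57N against WT (1.51% of all genes were called higher and 0.742% lower), while 2 passed 2-fold at an unadjusted limma p below 0.05 (2.61% of all genes higher and 1.95% lower). That gene was AHR, the receptor for aryl hydrocarbons, in the list on xenobiotic sensing and conjugation, of which 15 of 20 genes on the array were tested. AHR was at -0.30, 0.32 and 0.32 in WT, 0.02, 0.31 and 0.44 in F53S, and 1.05, 1.38 and 1.36 in K57N. Its K57N arrays lay above all others, and its log2 difference from WT of 1.15 ± 0.22 had a limma adjusted p of 0.0366, and of 0.000332 with slide as a term. None of the 23 tested sterol and lipid genes, among them the regulators and partners of ABCA1 and ABCG1, was called, and their median was -0.19 in K57N against WT. With slide as a term 1 of them, the phospholipid transfer protein PLTP, was called lower (-1.06, limma adjusted p = 0.00764, named after its values were seen).

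No gene was called in K57N against WT among 14 peptide loading genes and ABC proteins named otherwise, which hold TAP1 and TAP2 (median -0.10), 17 peroxisomal genes (-0.05), 16 mitochondrial iron-sulfur and heme genes (-0.14), 16 genes of translation and ribosome recycling (0.29), or in KCNJ8, the 1 tested channel subunit that pairs with sulfonylurea receptors (-0.89). In F53S against WT none of the genes in the 7 lists was called, and the medians of the 6 lists with more than 1 tested gene lay between -0.01 and 0.03. In K57N against F53S none was called and 1, AHR, passed 2-fold upward at an unadjusted limma p below 0.05 (2% of all genes), and with slide as a term AHR was higher and PLTP lower.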

How the data were processed

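The 9 arrays were 1-colour Agilent SurePrint G3 human arrays hybridised with Cy3-labelled cRNA. Per the labels, the authors extracted the spots with Agilent Feature Extraction 10.10.1.1, and the deposited scanner files hold its processed signal, a spot intensity from which background and spatial trends had been taken out, not scaled between arrays. The log2 table the authors deposited equals the log2 of that signal less a constant per array, within 0.02 for 100% of the sequences with a single spot, and its normalization is not given in the sources used here. Here each array was divided by its 75th percentile without control spots, outlier spots were left out, and log2 values of repeated spots were averaged. Sequences detected well above background by all 3 arrays of at least 1 line were tested over all 9 arrays with limma 3.58.1 (R 4.3.3), with Benjamini-Hochberg adjustment over all of them, and a gene was represented by its tested sequence of highest mean signal. A gene was called beyond 2-fold at an adjusted p below 0.05. Array number limits the precision, and the part of array brightness in it was not tested. The 3 arrays per line came from independent experiments on 1 line, so p-values measure the spread between those experiments.

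Groups came from the sample titles. Same-numbered arrays of different lines deviated together (correlation of deviations from the line means 0.34 to 0.87 across all sequences). Replicate number and slide moved together, and arrays of different numbers were not correlated. The correlations therefore cannot tell pairing by number from a shared slide. Pairing by replicate number was assumed for the replicate block only. All replicates 1 shared 1 slide per the file headers. Alternatives were normexp background correction (offset 50), quantile normalization, the deposited log2 table, other filters on dim signals, the mean of a gene's sequences, 2 lines at a time, the replicate block, slide as a term, slide 2 alone, the t-test that the study's methods name (called the methods' t-test), and leaving out each array.

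The members, the gene lists and the alternatives were chosen with earlier results of these data known. Genes are named by a rule: ABCB1 and ABCA1, each ABC gene called or with an adjusted p below 0.05 with slide as a term, the gene with the brightest tested sequence in each subfamily (which does not rank the genes' levels), and partner genes that were called, with the remaining ABC genes added for completeness. Values of 2 members are not reported here singly or in the figures, and both stay in the counts and medians. Of the array sequences, 29032 took their gene symbol from RefSeq by accession and the others from the file. Promoters came from the RefSeq table (GRCh38.p14), and array positions are on hg19 as the files give them. Motifs and figures were made with Python 3, pandas and matplotlib.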

Additional observations from a re-analysis of the deposited data

How the results depend on the processing

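The calls of ABCB1, ABCA1 and ABCC2 below are a description from which nothing is read, for the reasons given above. The 2 ABC genes called higher in K57N against WT became 1 with normexp background correction, with no filter on dim signals and with 2 lines at a time, ABCA1 being the gene lost, and 0 with the methods' t-test after adjustment. They became 0 when a sequence had to be well above background on all 9 arrays, because neither ABCB1 nor ABCA1 is then tested. The count ran from 1 to 3 when each array was left out in turn, with ABCA1 lost without any 1 of the K57N arrays and ABCC2 added without F53S replicate 1. Genes called lower in K57N than in WT went from 0 to 1 with the replicate block, to 2 with slide as a term and to 2 with the methods' t-test without adjustment. Genes called higher in K57N than in F53S went from 1 to 2 with quantile normalization and with 2 lines at a time, to 3 with the replicate block, with slide as a term and with the methods' t-test without adjustment, and to 0 with the filter on all 9 arrays. The methods' t-test after adjustment also gave 1, but with ABCA1 called in place of ABCB1. The count was 1 or 2 when each array was left out, the 2 without WT replicate 2. The replicate block, in which the arrays are paired by number, also added ABCC2 to the genes higher in K57N against WT (3 in all) and changed no other call of an ABC gene. With the fold limit, counts in F53S against WT, and of genes lower in K57N than in F53S, were 0 under every alternative run. The median over the ABC genes in K57N against WT, 0.10, was 0.03 with normexp, with no filter and with the filter on all 9 arrays. In F53S against WT it was 0.03, and -0.02 to 0.08 when each array was left out. In K57N against F53S it was 0.06, and -0.02 with normexp, 0.10 with quantile normalization, 0.01 with no filter, -0.03 with the filter on all 9 arrays, 0.09 with the deposited log2 table and 0.06 to 0.10 when each array was left out, so that its sign is not settled. Over all genes, 291 were called higher and 143 lower in K57N against WT, and the alternatives gave 82 (the methods' t-test after adjustment) to 494 (slide as a term) higher and 23 (no filter on dim signals) to 380 (slide as a term) lower. The cause of these shifts was not tested. Of the tested ABC genes, ABCA1, ABCA10, ABCB1, ABCC2 and ABCC6P1 were not well above background on all 9 arrays.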
